A study of Mus musculus with 72 samples.

Results

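Heat shock proteins and their DnaJ cochaperones were taken from the count table as the protein-coding mouse genes whose symbol starts with Hspa, Hspb, Hsp90, Hspd, Hspe, Hsph, Dnaja, Dnajb or Dnajc. The rule found 74 genes among the 24237 genes of the table, of which 20537 are protein coding. By class, assigned from the symbol, they are 11 Hsp70 proteins, 3 Hsp110 proteins, 3 Hsp90 proteins, the 2 subunits of the mitochondrial chaperonin, 8 small heat shock proteins, 2 genes with an Hspb symbol that encode binding proteins of heat shock proteins, and 45 J-domain proteins (4 of type A, 13 of type B and 28 of type C). Hspb11 counts among the small heat shock proteins here and below by its name only. They were measured by RNA.seq in 72 libraries from hearts of adult C57BL/6J mice, in 4 groups, 3 chambers (right atrium, left atrium and ventricle) and both sexes, with 3 libraries for each combination. The naïve Ahr+/+ mice came from dams given corn oil by gavage on 3 days of gestation, and the low- and high-dose TCDD mice came from Ahr+/+ dams given 0.1 or 1 µg/kg of TCDD (dioxin, a persistent pollutant and the prototype ligand of the Ah receptor) in corn oil on the same days. The Ahr-/- mice lack the Ah receptor in every cell, carry the deletion backcrossed into C57BL/6J, and came from untreated dams, so genotype and gavage differ together between them and the naïve mice. The mice themselves were not dosed after birth. The labels give the age as 9 months and the study's methods as 10 months. The labels call the cells cardiomyocytes, but chambers of whole tissue were extracted, and the 3 chambers of a heart are not linked to each other by the labels.

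Heat shock proteins are chaperones: Hsp70 proteins hold unfolded stretches of protein in a cycle of ATP hydrolysis, J-domain proteins deliver the substrate and start the hydrolysis, and Hsp110 proteins release the nucleotide so that the cycle can begin again. Hsp90 finishes the folding of receptors and kinases and, in the cytosol, holds the Ah receptor until a ligand binds it. Small heat shock proteins keep damaged proteins from aggregating without using ATP and are abundant in heart and skeletal muscle, while separate sets of Hsp70, Hsp90 and J-domain proteins work in the endoplasmic reticulum and in mitochondria. The genes are switched on by Hsf1 when proteins unfold in the cytosol and by Atf6 and Xbp1 when they unfold in the endoplasmic reticulum.

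The letters that these factors are known to bind lie close to the start of several of the genes, and the stretches below are shown because they belong to members whose levels are described afterwards. RefSeq promoter windows (250 bases before to 50 bases after the start of transcription, build GRCm38.p6) were matched to 60 of the 74 genes. The heat shock element was searched on both strands as GAANNTTCNNGAA, and the windows of 4 of the 60 genes (6.67%) held it against 0.662% of the windows of 27025 genes. The 4 were Hspd1 and Hspe1, the chaperonin and its lid, Hsph1, an Hsp110, and Dnajb6, a J-domain protein that blocks aggregation. With at most 1 of the 9 fixed letters different, 14 of 60 (23.3%) held a match against 8.15% of all genes. Capitals mark the matches in the following stretches, each written 5′ to 3′ on the strand of its gene. Hspa1a lies on the minus strand and its stretch at chr17:34972243-34972280, Hspa1b's at chr17:34959325-34959362 (minus) has the same letters. The stretches of Hspa1a, Hspa1b and Hsph1 hold matches with at most 1 letter different, while those of Hspd1 and Hspe1 hold the full element; the full match of Hsph1 lies elsewhere in its window and is not printed.
Hspa1a and Hspa1b: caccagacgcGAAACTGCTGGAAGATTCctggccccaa
Hsph1, chr5:149636342-149636379, minus strand: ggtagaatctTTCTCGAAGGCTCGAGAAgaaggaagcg
Hspd1, chr1:55088049-55088086, minus strand: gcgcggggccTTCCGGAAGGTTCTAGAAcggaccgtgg
Hspe1, the same interval read on the plus strand: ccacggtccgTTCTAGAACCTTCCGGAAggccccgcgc
Hspd1 and Hspe1 are transcribed away from each other, so they share this element.

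The endoplasmic reticulum stress element was searched on both strands as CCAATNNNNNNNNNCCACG and was held by 3 of the 60 windows (5%) against 0.137% of all genes. The 3 genes encode the Hsp70, the Hsp90 and a J-domain protein of the endoplasmic reticulum, and capitals again mark the match.
Hspa5, chr2:34772015-34772053, plus strand: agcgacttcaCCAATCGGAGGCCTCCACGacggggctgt
Dnajc3, chr14:118937817-118937855, plus strand: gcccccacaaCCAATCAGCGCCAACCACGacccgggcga
Hsp90b1, chr10:86705523-86705666, minus strand, with a match on each strand: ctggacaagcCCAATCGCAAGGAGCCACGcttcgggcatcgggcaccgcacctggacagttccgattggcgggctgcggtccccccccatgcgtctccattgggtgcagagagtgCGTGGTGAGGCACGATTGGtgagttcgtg
The xenobiotic response element bound by the Ah receptor, searched as TNGCGTG on both strands, was in 5 of the 60 windows (8.33%: Dnaja4, Dnajb2, Dnajb4, Dnajc16 and Hspbap1) against 5.84% of all genes, a share near the background.

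Libraries held 11873417 to 28789382 counts each, and the 74 genes together took 0.856 to 1.54% of them (median 1.17%). In the Ahr-/- mice, Ahr itself lay between 2.0 and 9.23 counts per 1000000 of the library's total (CPM; median 5.05, n = 18) and in the Ahr+/+ mice between 4.68 and 30.8 CPM (median 11.6, n = 54). The ranges overlap, and since the counts cover the whole coding region they do not check the deletion. In 17 libraries, sex-linked genes or the atrial light chain Myl4 went against the label: Myl4 was under 100 CPM in 8 libraries labelled as atria and over 500 CPM in 5 labelled as ventricles, and sex-linked genes went against the labelled sex in 8. None of the 17 was a naïve or high-dose female ventricle. The study's methods call the samples biological triplicates, but the labels do not tie a library to an animal, so p-values measure the spread between these libraries. Libraries numbered 1 to 48 hold 2 of the 3 libraries of each combination and those numbered 49 to 72 the remaining library. Of the 17, 12 were among the 24 libraries numbered 49 to 72, and there the same 3 labels failed in all 4 groups: every library labelled female right atrium expressed Y-linked genes, every library labelled male left atrium had Myl4 at 2.21 to 4.57 CPM, and every library labelled male ventricle went against its sex and had Myl4 at 703.8 to 3533 CPM. The third library of these combinations was thus of another sex or chamber than its label by these markers, in the naïve group too. For part of the comparisons, counts of calls are given with and without the libraries against their label. That alternative was not run for the interaction with sex, and the CPM ranges and medians of groups include these libraries. In whole tissue, fewer cells of a type and less RNA per cell cannot be told apart.

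The heart expressed most of the family, led by small heat shock proteins and constitutive chaperones. Levels of different genes were compared as CPM per kilobase of coding sequence, taking the median of the 72 libraries. On this scale the 5 highest genes were Hspb7 at 3167, Hspb6 at 1197, Hspa8 at 953.3, Hspb8 at 681.5 and Hspa9 at 460.6. Hspb7 is a heart-enriched small heat shock protein of the sarcomere, Hspb6 is Hsp20, a substrate of protein kinase A in heart, Hspb8 works with Bag3 in the removal of damaged proteins, Hspa8 is the constitutive Hsp70 of the cytosol, and Hspa9 is the Hsp70 of the mitochondrial matrix. Hsp90ab1, the constitutive Hsp90 of the cytosol, followed at 436.3, Hspa5 (BiP, the Hsp70 of the endoplasmic reticulum) at 320 and Hspe1 at 304.2. Hsp90aa1, the Hsp90 that heat also induces, stood at 218.

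**Figure D1:**
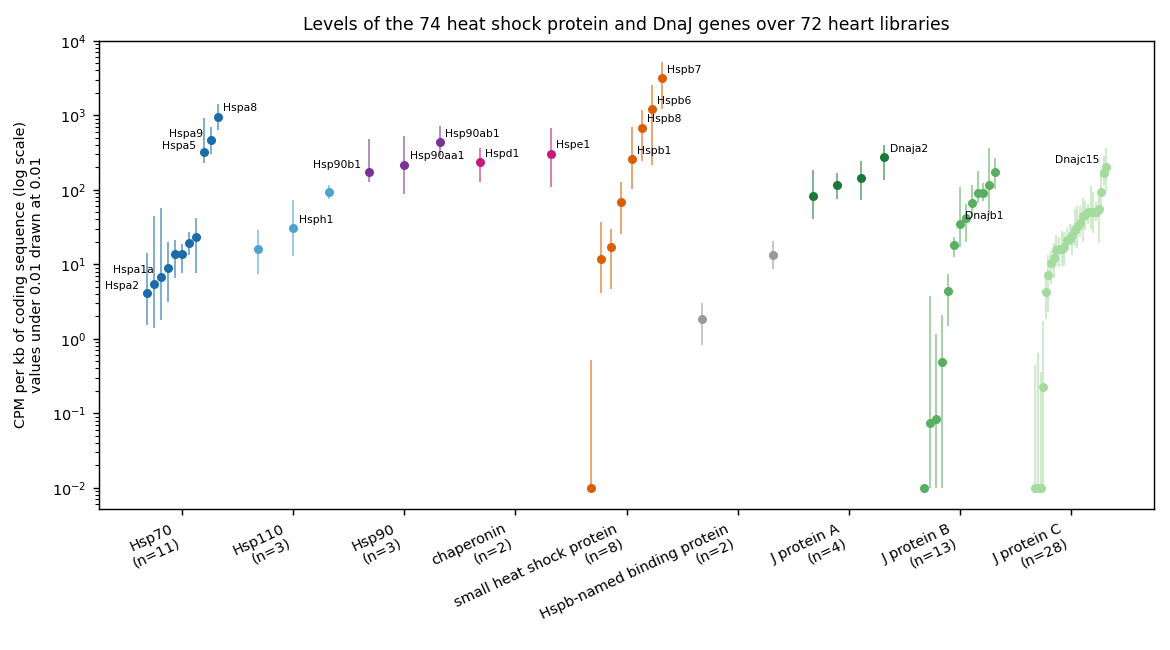
Levels of the 74 genes by class, in CPM per kilobase of coding sequence on a log axis, with points for the median and lines for the range of 72 libraries (values under 0.01 are drawn at 0.01). Hspb7 is highest at 3167, and the heat-inducible Hspa1a (6.84) and Hspa1b (5.42) lie far below the constitutive Hspa8 at 953.3.

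At the other end, Dnajb8, a J-domain protein of testis, was at 0 counts in all 72 libraries, which allows up to 3 counts a library, or 0.104 to 0.253 CPM from the deepest to the shallowest library. Dnajc22, Dnajc5b, Dnajc5g and Hspb9 never reached 10 counts in any library. These limits cover counting error only. Low levels in this group of genes therefore could not be followed across conditions.

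The steadiest members of the family were cochaperones and an exchange factor. Spread was measured as the residual SD of log2 CPM among the 3 libraries of each of the 24 combinations, and its median over all genes was 0.477. Hspa4, an Hsp110, had the smallest residual SD, at 0.144, of the 69 members that passed the filter and ran from 189 to 297.2 CPM over the 72 libraries. Dnajb2 (0.155), Dnajc5, the cysteine string protein of synaptic vesicles (0.183), Dnajc18 (0.184) and Dnajc2, a J-domain protein of the ribosome (0.205), came next. The largest residual SDs were those of Dnajc6 (auxilin, 1.48), the stress-inducible Hsp70 genes Hspa1a (1.16) and Hspa1b (1.14), Dnajb7 (1.07) and Dnajb13 (0.987). The order depended on the libraries against their label: in the 55 others Dnajc18 (0.115) came below Hspa4 (0.150), and Dnajb7 (1.02), Dnajb13 (1.01) and Dnajb3 (0.909) came above Hspa1a (0.907).

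Hspa1a and Hspa1b encode nearly the same protein of the cytosol and are the classical heat-induced Hsp70 genes. Their coding sequences are almost identical, so how reads were split between them is uncertain, and the ratio of their CPM stayed between 0.962 and 1.39 (median 1.17, n = 72). Over the ventricles, Hspa1a ran from 3.42 to 51.08 CPM with a median of 6.24 (n = 24), over the left atria from 6.51 to 109.3 with a median of 14.8, and over the right atria from 3.97 to 105.3 with a median of 16.35. The groups overlapped in every chamber. In the ventricle the group medians were 5.54 CPM in naïve Ahr+/+, 5.64 in Ahr-/-, 6.43 at low dose and 9.16 at high dose (n = 6 each). In the left atrium they were 15.0, 20.1, 15.8 and 14.6, and in the right atrium 18.25, 18.4, 17.6 and 16.35, in the same order. None of the 9 comparisons of Hspa1a with the naïve group over both sexes passed the test (log2 fold change -1.23 to 0.61, lowest adjusted p = 0.632, edgeR).

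**Figure D2:**
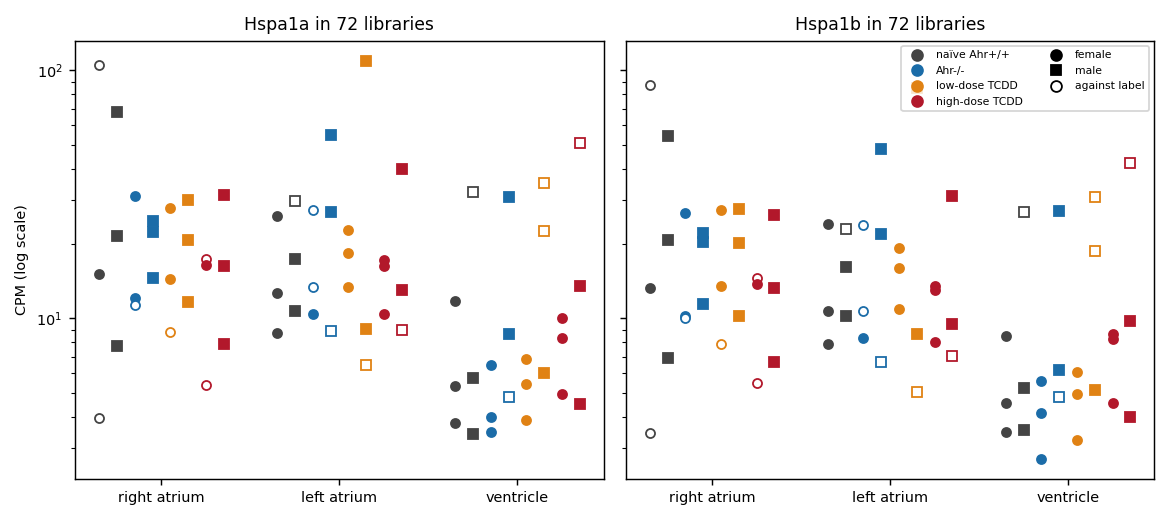
Hspa1a and Hspa1b in each of the 72 libraries, as CPM on a log axis, by chamber. Colours are the 4 groups, circles are labelled female and squares male, and open symbols are the 17 libraries against their label. The ventricles lie lowest (Hspa1a median 6.24 CPM) and single libraries of several groups reach 51.1 to 109.3 CPM.

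The 5 highest libraries for Hspa1a, picked out here after their values were seen, came from all 4 groups, and 2 of the first 3 were naïve right atria. Library 30, a low-dose male left atrium, had 109.3 CPM of Hspa1a, 84.7 of Hspa1b, 110.8 of Dnajb1 (the main J-domain partner of inducible Hsp70) and 126 of Hsph1, and in the same library the immediate early genes Fos, Egr1 and Atf3 stood at 157, 142.6 and 72.8 CPM. Library 50, labelled a naïve female right atrium and against its label, had 105.3 CPM of Hspa1a and 77.5 of Dnajb1, with Fos, Egr1 and Atf3 at 11.4, 20.4 and 36.9. Over all 72 libraries the medians of these early genes were 4.84, 16.44 and 6.32 CPM, so library 50 lay above each of them. Library 49, a naïve male right atrium, had 68.2 CPM of Hspa1a and 75.4 of Dnajb1, with the early genes at 6.92, 16.55 and 24.45. Library 21, an Ahr-/- male left atrium, had 54.7 CPM of Hspa1a, 190.6 of Hsph1 and 1160 of Hsp90aa1, with the early genes at 4.75, 10.97 and 11.78. Library 65, labelled a high-dose male ventricle and against its label, had 51.1 CPM of Hspa1a and early genes at 8.78, 28.92 and 30.99. Atf3 was above its median in all 5 libraries and Fos in 4 of them, and the part of these genes was not tested.

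Another library stood apart in several chaperones of the endoplasmic reticulum, also chosen after its values were seen. Library 33, a naïve male ventricle, had 1811 CPM of Hspa5 while the other 71 libraries ran from 445.8 to 952.6 (median 626.9). It had 1161 CPM of Hsp90b1 (Grp94, the Hsp90 of the endoplasmic reticulum; others 301.9 to 695.7) and 241.7 of Dnajb9 (ERdj4, a J-domain partner of BiP; others 30.47 to 170.8). Sdf2l1, a further protein of this compartment, was also highest there, at 28.47 CPM against at most 15.89 elsewhere. Other members of the compartment were less extreme there: Dnajc3 (p58IPK, ERdj6) ranked 2 of 72 at 141.1 CPM, Dnajb11 ranked 8, Dnajc10 ranked 14 and Hspa13 ranked 28. Ddit3, the stress factor Chop, was the lowest of the 72 at 4.175 CPM. Library 33 is 1 of the naïve ventricles used below, and the counts without it are given there for the comparisons over both sexes.

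The first comparison asked which of these genes differ in the adult female ventricle after high-dose TCDD in utero. Relative to naïve Ahr+/+, 21 of the 65 genes that passed the filter on low counts had an adjusted p under 0.05 (32.3%), 11 higher and 10 lower, whereas 23.7% of all 14006 genes tested did so (12.2% higher and 11.4% lower). A gene under this threshold is called here, by the quasi-likelihood test of edgeR, with p-values adjusted after Benjamini and Hochberg over all genes tested and with TMM scaling, so that a fold change can differ from the ratio of the CPM printed. None of the 65 passed the study's own threshold of 0.0001, against 0.0286% of all genes. The 9 genes not tested were Dnajb13, Dnajb3, Dnajb7, Dnajb8, Dnajc22, Dnajc5b, Dnajc5g, Dnajc6 and Hspb9. Among the 65, 7 were higher and 16 lower in all high-dose than in all naïve libraries, where 11.7% and 25.1% of all genes were so. With 3 libraries against 3, an exact permutation test of a single gene cannot go below p = 0.1, so the calls rest on the fit across genes.

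Of the 3 Hsp90 genes, Hsp90ab1 alone was called. Hsp90ab1 (chr17:45567778-45573261, GRCm38) stood at 730.1, 762.4 and 829.6 CPM in the naïve libraries and at 1224, 1181 and 1129 CPM at high dose. The groups did not overlap, and the log2 fold change was 0.78 ± 0.143 (SE, n = 3 per group, adjusted p = 0.00281). Of the Hsp70 proteins only Hspa9 was higher, at 1197, 1319 and 954.2 CPM against 923.7, 978.1 and 905.5, with overlapping groups (0.47 ± 0.125, adjusted p = 0.0168). The other abundant chaperones were not called. The heat-inducible Hsp90aa1 had 285.7, 335.0 and 253.0 CPM at high dose against 388.1, 333.3 and 603.3 CPM in the naïve libraries, with overlapping groups (-0.46 ± 0.238, adjusted p = 0.195). Hspa8 had 1987, 2080 and 1573 against 1583, 1515 and 2481 CPM (0.16 ± 0.214, adjusted p = 0.637) and Hspa5 630.6, 952.6 and 595.8 against 663.8, 607.0 and 860.4 CPM (0.18 ± 0.194, adjusted p = 0.542). In both genes a single naïve library, 54, lay above the other naïve ones. Hspa4 (0.08), Hsp90b1 (-0.03), Hspd1 (0.18), Hspe1 (0.04), Hsph1 (-0.28), Hspa1a (0.24), Hspa1b (0.47), Dnajb1 (0.13) and Dnaja1 (-0.42) were not called either.

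Of the 7 small heat shock proteins tested, 2 were called, both higher, and 6 had a log2 fold change above 0 (median 0.33). Hspb2 (chr9:50751072-50752354), a small heat shock protein of muscle known as a binding protein of the myotonic dystrophy kinase, had 24.2, 28.1 and 23.5 CPM in the naïve and 49.9, 44.8 and 41.4 CPM in the high-dose libraries. All high-dose values lay above all naïve ones (log2 fold change 1.02 ± 0.139, adjusted p = 0.000745). Hspb1 (Hsp27, which guards actin filaments) had 111, 115.2 and 149.9 against 143, 198.2 and 148.2 CPM, with overlapping groups (0.54 ± 0.178, adjusted p = 0.0463). Hspb3 (0.70, adjusted p = 0.0905), Hspb6 (0.33, 0.0921), Hspb7 (0.20, 0.309) and Hspb8 (0.11, 0.614), the last 3 being among the most abundant members, were not called. Of the coding bases of Hspb2, 46.2% (252 of 546) overlap exons of its neighbour Cryab, the small heat shock protein alpha B-crystallin, on the other strand in the GENCODE M21 annotation. Whether the counting used strand is not given in the sources used here, so reads of the shared bases cannot be told apart, and Cryab itself had a log2 fold change of 0.79 (adjusted p = 0.00281).

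J-domain proteins moved in both directions, with 7 higher and 8 lower of the 37 tested. Dnajc11 (chr4:151933720-151981959), which supports the cristae of mitochondria, rose from 39.1, 37.9 and 39.0 to 76.2, 58.3 and 60.5 CPM (log2 fold change 0.92 ± 0.145, adjusted p = 0.00132). Dnajc17, a nuclear J-domain protein, rose from 2.27, 1.68 and 2.32 to 5.27, 4.78 and 5.67 CPM (1.50 ± 0.299, adjusted p = 0.00418). Dnajb11 (ERdj3), a partner of BiP in the endoplasmic reticulum, rose from 54.5, 51.2 and 64.9 to 85.4, 93.3 and 69.0 CPM (0.69 ± 0.150, adjusted p = 0.00629). In all 3 the groups were apart. Dnajb5 (0.59, adjusted p = 0.0176), Dnajc15 of the mitochondrial inner membrane (0.37, 0.0399), Dnajc27 (0.44, 0.0468) and Dnajb6 (0.37, 0.0471) were the other J-domain proteins called higher.

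The lower J-domain proteins included cytosolic partners of Hsp70 and further partners of BiP. Dnaja2, a cytosolic type A protein, fell from 486.7, 471.4 and 405.9 to 298.7, 304.8 and 204.6 CPM (log2 fold change -0.59 ± 0.120, adjusted p = 0.00466), and its relative Dnaja4 from 205.5, 192.2 and 206 to 135.1, 140.6 and 88.0 CPM (-0.58 ± 0.136, adjusted p = 0.00914). Dnajb9 (chr12:44205897-44210068) fell from 103.4, 108.2 and 109.7 to 45.6, 74.3 and 34.6 CPM (-0.92 ± 0.189, adjusted p = 0.00559). The J-domain proteins of the endoplasmic reticulum were thus not of a single direction, since Dnajb11 was higher while Dnajb9, Dnajc3 (-0.50, adjusted p = 0.0262), Dnajb14 (-0.80, 0.0328) and Dnajc10, a disulphide reductase (-0.41, 0.0428), were lower. Dnajc19, of the mitochondrial import motor, fell from 55.6, 52.1 and 58.7 to 34.8, 39.2 and 28.8 CPM (-0.53 ± 0.137, adjusted p = 0.0145). Dnajc16 was lower as well (-0.46, adjusted p = 0.0295). Among the ATPases, Hspa13 (Stch, chr16:75755190-75767276), a short Hsp70 protein of microsomes, fell from 44.7, 37.9 and 41.7 to 19.4, 26.4 and 11.5 CPM (-0.98 ± 0.196, adjusted p = 0.0045). The Hsp110 Hspa4l fell from 49.3, 54.6 and 43.3 to 32.7, 38.2 and 18.8 CPM (-0.56, adjusted p = 0.0287).

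**Figure D3:**
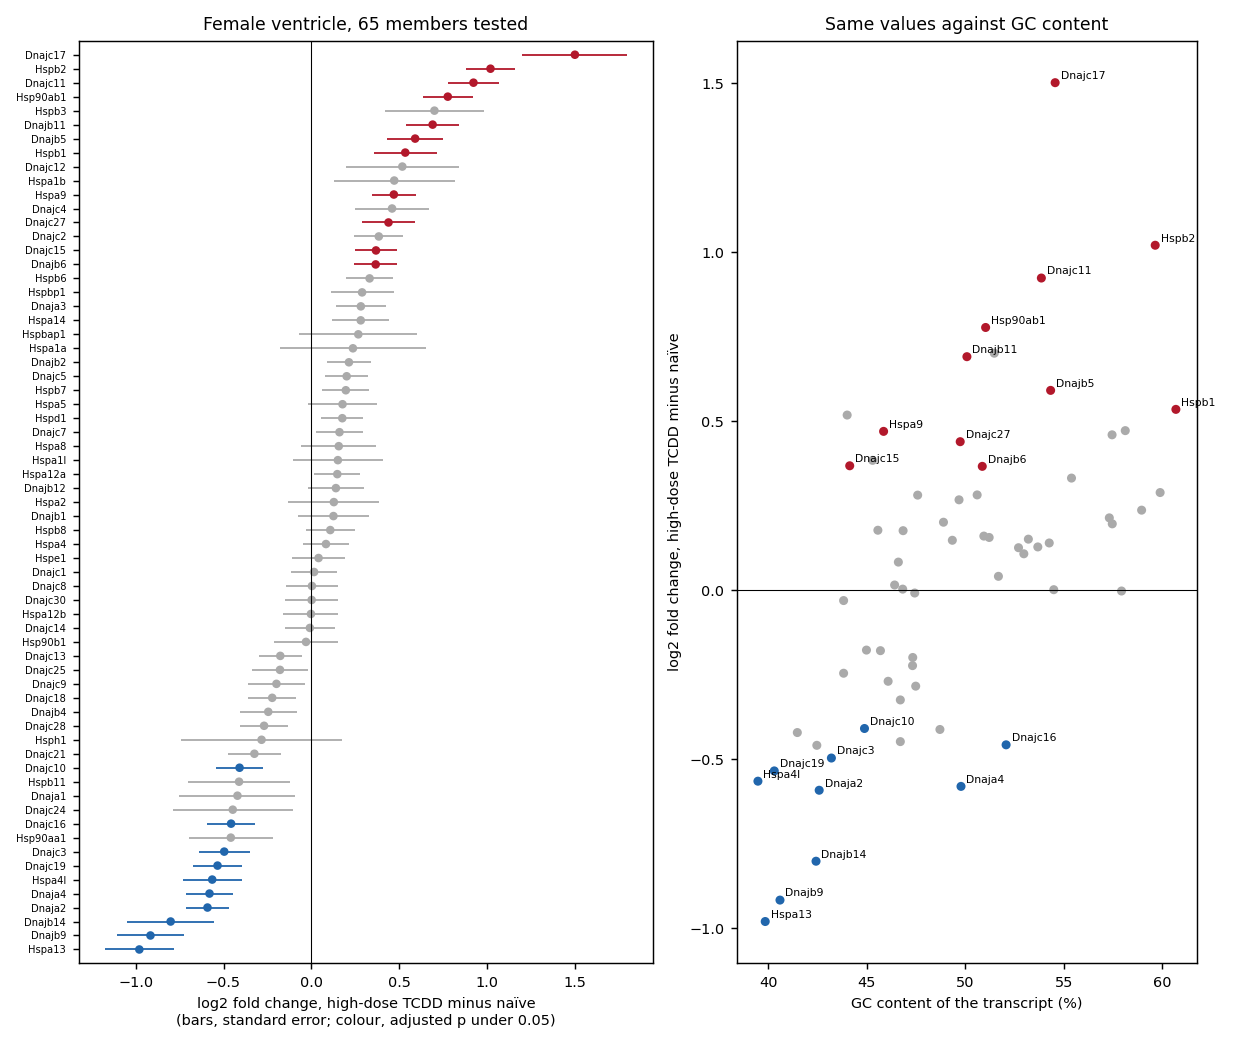
Left, log2 fold change with its SE for the 65 genes tested in female ventricles, high-dose TCDD minus naïve Ahr+/+ (n = 3 per group), with called genes in colour. Right, the same fold change against the GC percent of the transcript. Hspb2 (1.02) and Dnajc17 (1.50) lie at the top, Hspa13 (-0.98) and Dnajb9 (-0.92) at the bottom, and lower genes have less GC.

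The direction of change went with base composition. The genes called higher had a median GC of 51.0%, those called lower 42.5% and the rest 48.8%, and the correlation of log2 fold change with GC was 0.627 over the 65 genes against 0.462 over 13874 genes of the table. With a GC offset per library in the fit, 12 of the 65 were called (9 higher and 3 lower, where 13.4% of all genes were). Hsp90ab1 (0.73), Dnajc11 (0.73), Dnajc17 (1.27) and Hspb2 (0.66, adjusted p = 0.00545) were then still called, Hspa13 (-0.51, adjusted p just under the threshold) barely so, and Dnajb9 (-0.49, adjusted p = 0.0553) and Dnajc3 (-0.20, 0.339) were not. Scaled by library size alone, which set the median of all genes at -0.165 on the log2 scale, 5 members were called higher and 10 lower. In libraries 1 to 48 alone, 14 were called higher and 2 lower. The share of all genes called is not given for that fit or for the fit by library size. Neither count is therefore read as a result about the members. Without the naïve library 36 the count was 10, where 1853 of 14318 genes were called, and without naïve 35 it was 11, where 1553 of 14256 were. Hspb2, Dnajc11, Dnajc17, Hsp90ab1, Hspa13, Dnaja2, Dnajb9, Dnajb11 and Dnaja4 stayed called in all 6 fits that left out a library. Dnajb6, Dnajb14, Dnajc15 and Hspa4l stayed called in 1 of the 6 each, and Dnajc27 in 0. The other called genes lay between.

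Markers of some cell types also differed in this comparison. The summed CPM of 4 cardiomyocyte markers (Actc1, Myh6, Ryr2 and Tnnt2) ran from 35400 to 38330 in the naïve and from 51540 to 68040 in the high-dose female ventricles, and all 4 were called, 3 higher and 1 lower. The ventricular markers Myl3 and Irx4 were higher as well, with sums of 6360 to 7191 against 7743 to 8297 CPM for a list of 3. The 4 fibroblast markers summed to 961 to 1589 against 921 to 1003 CPM, with 1 called in each direction. Of the smooth muscle markers Myh11 and Tagln were higher (list sums of 147 to 286 against 246 to 298 CPM), of the skeletal muscle markers Myh1 and Myh4 were lower (52.6 to 94.4 against 45.4 to 54.3 CPM), and of the endothelial markers Tek was lower (632 to 744 against 620 to 788 CPM). Markers of atria, blood, leukocytes and adipocytes gave 0 calls. The atrial markers summed to 57.3 to 587 CPM in the naïve and 30.5 to 65.2 CPM in the high-dose libraries. The highest was naïve library 35, where Myl4 stood at 193.4 CPM against 4.23 in library 36 and 3.14 in library 54. The part of all these markers in the changes of the chaperones was not tested.

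Of all genes tested in this comparison, 12.2% were called higher and 11.4% lower. Among 45 other genes of the heat shock pathway (the chaperonin TRiC, Hsp90 cochaperones, Bag proteins and regulators), 21 were called higher and 0 lower. They included the TRiC subunit Cct8 (log2 fold change 0.89, adjusted p = 0.00149), Bag5, an Hsp70 exchange factor (0.95, 0.00186), Fkbp4, an Hsp90 cochaperone of steroid receptors (0.86, 0.00222), and Cdc37, which brings kinases to Hsp90 (0.98). The median log2 fold change of the 45 was 0.377 and that of all genes 0.00739. With the GC offset 14 were higher and 0 lower, and the share of all genes called in that fit is given above. Of 18 genes of the endoplasmic reticulum stress response, 3 were higher and 2 lower: Creld2 (1.28, adjusted p = 0.00271), Ddit3 (0.94, 0.00921) and Atf4 (0.56, 0.0483) rose, whereas Xbp1 (-0.74, 0.0126) and Edem1 (-0.59, 0.0187) fell.

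Both doses were then compared with the naïve group over the ventricles of both sexes, with sex as a term and 6 libraries per group. Both comparisons use the same 6 naïve libraries. At low dose 11 of 65 members were called (16.9%, 6 higher and 5 lower) where 12.5% of all 14536 genes were. At high dose 9 of 67 were called (13.4%, 4 higher and 5 lower) where 12.5% of 14756 genes were, a share near the background. In the Ahr-/- ventricles 0 were called, against 0.0339% of all genes, and in the 6 comparisons of the atria over both sexes 0 were called, against 0.013% of all genes in Ahr-/- left atria, 0.00644% in Ahr-/- right atria, 0.0722% in high-dose right atria and 0% in the rest. In these 7 comparisons 1 to 13 members had an unadjusted p under 0.05 (13 in the high-dose left atrium, 19.4% against 17.6% of all genes, and 1 in the low-dose right atrium, where 9.68% of all genes did), and DESeq2 called 1, 1 and 3 members in the Ahr-/-, low-dose and high-dose left atria. In the Ahr-/- left atria DESeq2 called 1.02% of all genes.

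Hspb2 was higher at both doses. The 6 naïve ventricles ran from 13.96 to 28.08 CPM (median 23.72), those at low dose from 33.45 to 54.65 (median 44.81) and those at high dose from 20.74 to 60.83 (median 43.07). The low-dose values lay above all naïve ones, and at high dose only library 65, which goes against its label, fell into the naïve range. The log2 fold change was 1.15 ± 0.170 (adjusted p = 0.00896) at low and 1.07 ± 0.242 (adjusted p = 0.0171) at high dose. The Ahr-/- ventricles ran from 19.43 to 36.36 CPM (median 33.99) and were not called (0.54, adjusted p = 0.373). In the left atrium Hspb2 had log2 fold changes of 0.59 in Ahr-/-, 0.83 at low and 0.52 at high dose, and none was called (adjusted p = 0.248, 0.213 and 0.140).

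Hspa13 was lower at both doses. Its 6 naïve ventricles ran from 37.89 to 44.72 CPM (median 40.26), the low-dose ones from 17.36 to 29.16 (median 26.47) and the high-dose ones from 11.54 to 27.34 (median 22.89). All 12 exposed ventricles lay below all 6 naïve ones. The log2 fold change was -0.58 ± 0.115 (adjusted p = 0.0123) at low and -0.86 ± 0.158 (adjusted p = 0.0101) at high dose, and Hspa13 stayed called at each dose in all 12 fits that left out a library. The Ahr-/- ventricles overlapped the naïve ones, from 14.79 to 44.63 CPM (-0.45, not called).

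**Figure D4:**
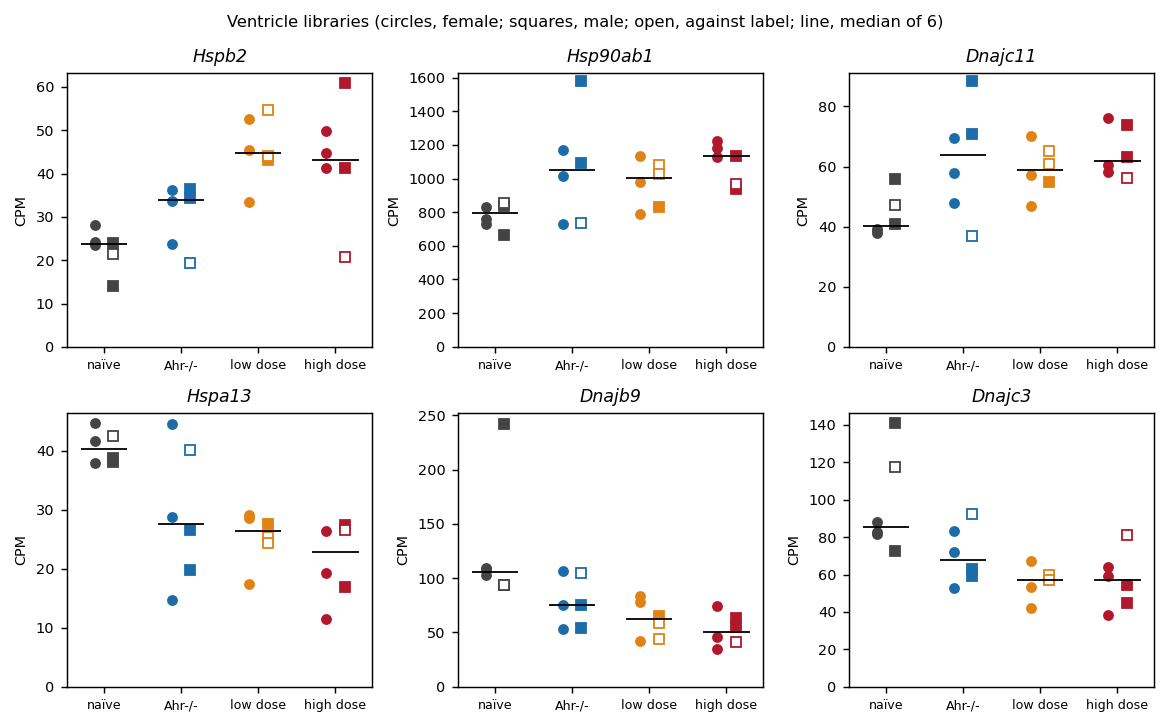
CPM of Hspb2, Hsp90ab1, Dnajc11, Hspa13, Dnajb9 and Dnajc3 in every ventricle library by group; circles are labelled female, squares male, open symbols go against their label and lines mark the median of 6. The 12 TCDD ventricles lie below the 6 naïve ones for Hspa13 (at most 29.16 against at least 37.89 CPM).

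Of the J-domain proteins of the endoplasmic reticulum, Dnajb9, Dnajc3 and Dnajb14 were lower at both doses, and Dnajb11 (0.11 and 0.31, adjusted p = 0.713 and 0.303) and Dnajc10 (-0.42 and -0.44, 0.0532 and 0.0605) were not called. Dnajb9 ran from 93.79 to 241.7 CPM in the naïve ventricles, the highest being library 33, from 41.91 to 83.47 at low dose and from 34.56 to 74.33 at high dose, without overlap (log2 fold change -0.93, adjusted p = 0.0375, and -1.17, adjusted p = 0.0202). Dnajc3 ran from 72.68 to 141.1 CPM in the naïve group, from 41.86 to 67.20 at low dose (-0.69 ± 0.161, adjusted p = 0.0188) and from 38.45 to 81.26 at high dose (-0.69, adjusted p = 0.0279). Dnajb14 (-0.75 and -0.72, adjusted p = 0.0258 and 0.0230) and Hspa4l (-0.45 and -0.57, adjusted p = 0.0378 and 0.0199) were the other genes lower at low and at high dose.

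Dnajc11 (0.58 at low dose, adjusted p = 0.0327; 0.69 at high dose, 0.0176) and Dnajc17 (0.95, 0.0352; 0.93, 0.0492) were higher at both doses. Hspb1 (0.81 ± 0.209, adjusted p = 0.0258), Dnajc4 (0.52, 0.0301) and Hspa2, an Hsp70 best known from testis (0.77, 0.0378), were called higher at low dose, and Hsp90ab1 (0.59, 0.0344) at high dose. Whether the doses differ from each other was not tested. The main Hsp90 and Hsp70 of the endoplasmic reticulum were not called: Hsp90b1 had log2 fold changes of -0.69 at low dose (adjusted p = 0.0945) and -0.46 at high dose (0.307), and Hspa5 -0.49 (0.261) and -0.34 (0.515). Among further genes short of the threshold were Hsp90aa1 (-0.57 at low dose, adjusted p = 0.0804), Dnajb4, a J-domain protein of muscle (-0.52 at high dose, 0.0577), and Hspb3 (0.69 and 0.84, 0.152 and 0.121). Hspa8, Hspa4 and Hspb8 stayed within 0.2 of 0 on the log2 scale at both doses. Of the 45 other heat shock pathway genes, 8 were higher and 1 lower at low dose and 7 higher and 0 lower at high dose, among them Stub1, the ubiquitin ligase of Hsp70 (0.62 and 0.70), and Bag3, the partner of Hspb8 (0.62 and 0.63), where 12.5% of all genes were called at each dose. With the GC offset 4 of the 45 were called higher at low and 1 at high dose, and without the libraries against their label 1 was higher at low dose and 18 were higher and 3 lower at high dose.

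These ventricle counts moved with GC and with single libraries. With the GC offset, chosen for these comparisons after seeing the data, 2 genes were called at low dose (Hspb2, 0.82, adjusted p = 0.0197, and Dnajc15, 0.76; 2.87% of all genes) and 0 at high dose (0.996%). The genes called at low dose had a median GC of 56.0% if higher and 40.6% if lower, and at high dose 54.2% and 40.6%. Without the libraries against their label, 4 were called at low dose (1 higher, 3 lower; 5.25% of all genes) and 18 at high dose (8 and 10; 24.1%). Leaving out 1 library gave 2 to 14 calls at low dose. The 2 came without low-dose 46, where 509 of 14880 genes were called. The 14 came without 48 (2374 of 14844 genes) or naïve 53 (2156 of 14649). At high dose it gave 3 (without high-dose 66, 617 of 15308 genes) to 16 (without 65, 2813 of 14877). Without naïve library 33 it gave 5 at low dose (967 of 14888 genes) and 6 at high dose (953 of 15287). At low dose Hspb2 stayed called in all 12 fits that left out a library and Dnajc3 in 11. Dnajb9, Dnajc17 and Hspa2 stayed called in 4 of these 12 each, and Hspa4l in 3. At high dose Hspb2, Dnajb9 and Hspa4l stayed called in 11 of 12, Hsp90ab1 in 4 and Dnajc17 in 2. The other called genes besides Hspa13 lay between. By library size alone, which set the median of all genes at -0.117 and -0.0459, 4 were higher and 8 lower at low dose and 3 and 6 at high dose. The share of all genes called in each direction is not given for these fits. Their counts are therefore not read as results about the members. Cardiomyocyte markers summed to 25030 to 45640 CPM in the naïve, 39180 to 62830 in the low-dose and 36870 to 68040 in the high-dose ventricles, and their part was not tested.

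In the other 17 comparisons of a group with naïve Ahr+/+ within a chamber and sex, 0 of the members were called by edgeR, where at most 0.0216% of all genes were. At an unadjusted p under 0.05, 0 to 13 members passed in each, with 13 in the low-dose female left atrium (19.7% against 17.6% of all genes), 11 in the low-dose female ventricle (16.9% against 17.8%) and 1 in the low-dose male left atrium (1.49% against 1.6%), shares near the background. The small heat shock proteins had the smallest p of all members in several of them: Hspb2 in the low-dose female ventricle (log2 fold change 0.99, adjusted p = 0.144), low-dose male ventricle (1.32, 0.290) and low-dose female left atrium (0.95, 0.153), and Hspb1 in the Ahr-/- male left atrium (1.05, 0.928) and Ahr-/- male ventricle (0.95, 0.827). DESeq2 called 8 members over the 17 comparisons, all higher. In the low-dose female left atrium it called 3 of the 66 members tested, where it called 4.52% of all genes.

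The choice of libraries changed some of these counts. In libraries 1 to 48 alone, 9 members were called in the Ahr-/- female left atrium (7 higher and 2 lower, where 18.4% of all genes were), but both Ahr-/- libraries in that fit go against their label, with Myl4 at 48.7 and 5.09 CPM, and without them 0 were called. In the high-dose male ventricle, with all 6 libraries 8 members had an unadjusted p under 0.05 (11.9% against 9.19% of all genes). Dnajb9 (-1.43), Dnajb4 (-0.80) and Hspa13 (-0.76) had the smallest p and were not called (adjusted p = 0.525). Without naïve library 53 and high-dose library 65, which go against their label and are also the pair numbered above 48, 10 members were called where 15.9% of all genes were. That count is near the background. That fit held 2 naïve libraries, 33 and 34, against 2 at high dose, 41 and 42. Hspb1 (1.86), Hspb2 (1.47), Hspe1 (1.08), Hspb6 (1.04) and Dnajc30 (0.82) were then higher, and Dnajb9 (-1.48), Dnajc3 (-1.09), Dnajb4, Dnajc13 and Dnajc27 lower. Library 33 had 241.7 CPM of Dnajb9, 141.1 of Dnajc3 and 64.34 of Hspb1, against 93.79, 72.68 and 115.2 in library 34. No count without library 33 is given for this fit. The 9 tests of a difference between the sexes in the response called 0 members in edgeR, where 0% of all genes were called, and 0 in DESeq2. At an unadjusted p under 0.05 they passed 0 to 4 members, with 4 in the high-dose ventricle (5.97% against 4.53% of all genes).

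Between chambers, the mitochondrial chaperones Hspd1, Hspe1, Hspa9 and Dnaja3 and 3 of the 7 small heat shock proteins tested were higher in the ventricle. The ventricle was compared with the mean of both atria over all 72 libraries, and 32 of 69 members were called (46.4%; 27 higher and 5 lower) against 32.8% of 16688 genes (15% higher and 17.7% lower). All chambers of a heart share an animal, which the labels do not identify, so the fit treats them as separate.

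Both chaperonin subunits were called: Hspd1 (Hsp60) had medians of 482.9 CPM in ventricle, 398.7 in left atrium and 387.1 in right atrium (n = 24 each; log2 fold change 0.42 ± 0.0907, adjusted p = 0.000406), and Hspe1 (Hsp10) 104.6, 91.6 and 88.5 CPM (0.36, adjusted p = 0.0172). The mitochondrial Hsp70 Hspa9 had medians of 996.8, 923.2 and 897.7 CPM (0.35, adjusted p = 0.00117). Its J-domain partner Dnaja3 (Tid1) had 191.4, 165.1 and 157.8 CPM and the smallest p of the family (0.45 ± 0.079, adjusted p = 4.88e-05). The ranges of the chambers overlapped for each of these genes. Of 45 other heat shock pathway genes 13 were higher and 0 lower, where 15% of all genes were higher and 17.7% lower. Among the 13 were the mitochondrial Hsp90 Trap1 (0.42) and the exchange factors of Hspa9, Grpel1 (0.44) and Grpel2 (0.35). By library size alone 6 of the 45 were higher and 7 lower, and the share of all genes called in that fit is not given.

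Of 7 small heat shock proteins 3 were higher in the ventricle. Hspb6 ran from 282.4 to 1242 CPM in ventricle (median 739.3), 105.9 to 931.7 in left atrium (535.5) and 106.3 to 839.5 in right atrium (396.6), with a log2 fold change of 0.76 ± 0.198 (adjusted p = 0.00262). Hspb8 had medians of 481.9, 405.1 and 366 CPM (0.47, adjusted p = 0.000807) and Hspb7 1784, 1646 and 1390 (0.39, adjusted p = 0.00383). In the cytosol and endoplasmic reticulum, Hspa4 (0.18, 0.00338), Hspa8 (0.19, 0.0302) and Hspa5 (0.33, 0.00243) were higher by less, and none of the 3 Hsp90 genes was called.

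The inducible Hsp70 genes were among the 5 genes lower in the ventricle. Hspa1a (-0.84 ± 0.287, adjusted p = 0.0201) and Hspa1b (-0.83, 0.0199) were lower, with Dnajb1 just short of the threshold (-0.27, adjusted p = 0.0523). Of 12 immediate early genes, 5 were also lower in the ventricle (Fos, -0.99) and 1 was higher, and their part was not tested. Hspa2 had medians of 5.38, 9.09 and 9.02 CPM (-0.53 ± 0.119, adjusted p = 0.000653), Dnajb3 0.171, 0.408 and 0.519 CPM (-1.25, adjusted p = 0.00576), and Dnajc10 was lower by a smaller amount (-0.23, 0.00844). Fibroblast markers summed to 828 to 2583 CPM in ventricles (median 1118) and 710 to 3033 in atria (median 2106), and 3 of 4 were called lower.

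**Figure D5:**
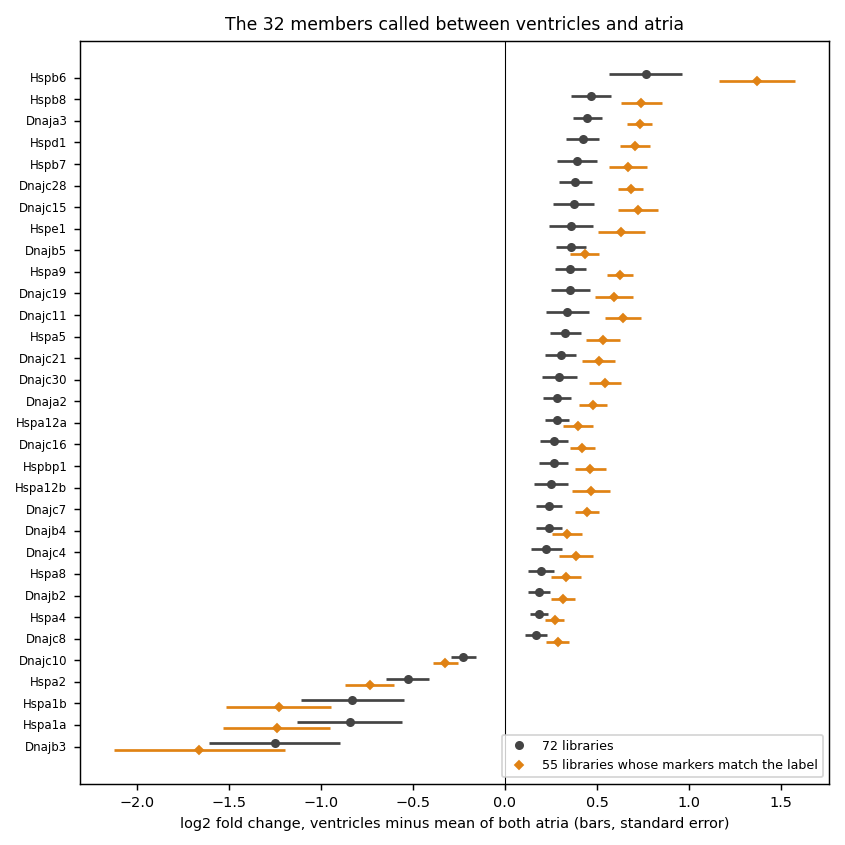
Log2 fold change with its SE, ventricle minus the mean of the atria, for the 32 called genes in all 72 libraries and in the 55 that match their label. All 32 fold changes are larger in size in the matching libraries, for example Hspb6 at 1.37 against 0.76 and Hspa1a at -1.24 against -0.84.

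In the 55 libraries that match their label, 44 members were called (32 higher and 12 lower, where 49.8% of all genes were), with Hspb6 at 1.37, Dnaja3 at 0.73 and Hspd1 at 0.71. Those libraries were chosen in part by Myl4, which differs in the same contrast. The ventricular light chain Myl2 was not part of the check. Among the atria kept it stood at 8.04 CPM in library 20 and at 5533 CPM in library 28. Over all libraries labelled as atria, the ventricular markers Myl2, Myl3 and Irx4 summed to 21.9 to 10990 CPM (median 4269). In those labelled as ventricles they summed to 1337 to 16250 CPM (median 7273). The part of ventricular tissue in the atria was not tested. By library size alone, which set the median of all genes at -0.206, 7 were higher and 18 lower and Dnajc8 changed sign, so the count in each direction rests on the scaling. The share of all genes called in each direction is not given for that fit.

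The left and right atrium, as labelled, were not told apart by any member (0 of 69 called by edgeR and by DESeq2, against 0.00599% of all genes in edgeR, and 4 at an unadjusted p under 0.05, 5.80% against 3.2%). The label check used the same Myl4 limit for both atria, so it could not tell left from right. The 8 libraries labelled as atria with Myl4 under 100 CPM were part of this contrast. Between female and male libraries 0 of 69 were called by edgeR and by DESeq2, against 0.24% of all genes in edgeR. At an unadjusted p under 0.05, 6 were lower in females (8.70% against 4.22% of all genes) and 0 higher, led by Hspa1a (log2 fold change -0.78, adjusted p = 0.323) and Hspa1b (-0.75, 0.362). The immediate early genes Fos (-1.05, adjusted p = 0.0266) and Nr4a1 (-1.0, adjusted p = 0.0106) were lower in the same libraries, and their part was not tested. Without the libraries against their label Dnajc7, a cochaperone that links Hsp70 and Hsp90, was called lower in females (-0.30, adjusted p = 0.0118).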

How the data were processed

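Total RNA of heart chambers was made into poly-A libraries and read by single-end sequencing. Per the study's methods and the labels, the authors demultiplexed with CASAVA 1.8, aligned with TopHat to mm10 and counted reads on coding regions with Bioconductor packages, and tested with DESeq. The deposited table holds raw counts per gene. The annotation release, strand setting and handling of multiply mapped reads are not given in the sources used here. All 24237 genes entered the tests, including 82 without a symbol that hold 3.91% of counts. No column of per-sample values was left aside. Counts were fitted with edgeR 4.0.16 (R 4.3.3; TMM scaling, filterByExpr with a minimum count of 10 and total of 15, robust quasi-likelihood test) and adjusted by the Benjamini-Hochberg method over all genes tested. Each treated or Ahr-/- group was compared with the naïve group within a chamber and sex from only those 6 libraries, within a chamber over both sexes with a sex term, and for interaction with sex. Chambers and sexes were compared over all 72 libraries with a mean for each of the 24 combinations. A fold change is log2 with its SE. Alternatives were DESeq2 1.42.0, RLE scaling, library size alone, no filter, all 4 groups in 1 fit, a term for library series, libraries 1 to 48, an offset from a GC spline with 5 degrees of freedom, and leaving out libraries. The fitting code was checked on simulated data. Depth per library and the precision of counts at 0 are given with the values.

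Genes named are a panel of core chaperones (Hspa1a, Hspa1b, Hspa4, Hspa5, Hspa8, Hspa9, Hsph1, Hsp90aa1, Hsp90ab1, Hsp90b1, Hspd1, Hspe1, Dnaja1, Dnaja3, Dnajb1, Dnajb4, Dnajb5, Dnajc3, Dnajc19 and 6 small heat shock proteins), up to 10 called members of smallest adjusted p in each direction or up to 3 of smallest unadjusted p where none was called, the 5 of largest and smallest spread, members at 0, and the 5 highest per coding length. The members and the lists were chosen with earlier results of these data known. Sequences and gene positions are RefSeq's for GRCm38.p6, and coding overlaps are GENCODE M21's.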

Additional observations from a re-analysis of the deposited data

How the results depend on the processing

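The 21 calls in high-dose female ventricles became 4 with all 4 groups in 1 fit (Hspb2, Dnajc17 and Dnajc11 higher, Dnajb9 lower), 12 with the GC offset and 0 at an adjusted p under 0.0001, and 10 to 21 when a library was left out. Over all genes, 1853 of 14318 were called in the left-out fit with 10 and 3917 of 14379 in that with 21. Hspb2, Dnajc11 and Dnajc17 were called under the 8 settings other than the stricter threshold and in all 6 fits that left out a library. The 0 calls in the other 17 comparisons became 8 with DESeq2, 20 in libraries 1 to 48 (13 higher and 7 lower) and 10 without libraries against their label, where the high-dose female right atrium could not be fitted, and 0 to 3 when a library was left out. The 3 came without Ahr-/- female ventricle library 39, where 994 of 13988 genes were called. The 20 calls over both sexes within chambers became 37 with DESeq2 (17 higher and 20 lower), 2 with the GC offset and 0 at an adjusted p under 0.0001, and 7 to 27 when a library was left out. The GC offset outside the high-dose female ventricle and the left-out libraries over both sexes were chosen after seeing the data. The 32 calls between ventricle and atria became 0 in naïve libraries alone, which are fewer, and 1 at 0.0001, and Dnajc8 reversed with library size alone (-0.0028). The sex comparison went from 0 to 1 call without libraries against their label, and the interaction with sex from 0 to 2 in libraries 1 to 48 (0 to 2 when a library was left out). The number of all genes called also moved with the setting. In the low-dose female left atrium, for example, DESeq2 called 673 of 14885 genes and edgeR 0. Counts given here without a share of all genes are therefore not read as results about the members. Where not stated, the cause was not tested. No paired analysis was possible because the labels give each library its own number and none that groups share.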
